A study of Mus musculus with 4 samples.

Results

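The gene set described here holds 32 genes of glucose use, chosen by name: 12 for glucose uptake and upper glycolysis, 5 for lower glycolysis, 4 for making and moving lactate, 6 of the pentose phosphate pathway and 5 of pyruvate dehydrogenase and its kinases. They are 32 of the 32227 genes listed in the count files, and all 32 were found and detected. Single cells from the corpus of the mouse stomach, its acid-making main part, were profiled by PIPseq T20 3′ capture. All mice were wild type (WT in the sample titles), C57BL6/J and 6 to 7 weeks old. The untreated mice received PBS. The other groups received 1 oral dose of L635 at 350 mg/kg, a compound toxic to the acid-secreting parietal cells, and were sampled at day 1, at day 3 with AREG, and at day 3 without AREG. AREG stands for amphiregulin, which activates the receptor EGFR. How it was dosed, and how many mice went into a library, is not given in the sources used here. Each group is 1 library. Differences therefore have no replicate check, no test was made and intervals cover counting error only.

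Glycolysis splits glucose into pyruvate in the cytosol. Pyruvate is then either reduced to lactate by lactate dehydrogenase or turned into acetyl-CoA in mitochondria by the pyruvate dehydrogenase complex, which pyruvate dehydrogenase kinases switch off. The pentose phosphate pathway branches off at glucose 6-phosphate, makes NADPH, which protects cells against oxidation, and supplies ribose for nucleotides. Parietal cells are packed with mitochondria that fuel the proton pump. Of the lactate dehydrogenase subunits, LDHB prevails in heart and other oxidative tissues and LDHA in tissues that release lactate.

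Promoters of the genes were read for the letters ACGTG on either strand. These letters are a form of the core of the element bound by the hypoxia-inducible factors. They were chosen because many glycolytic genes are textbook targets of those factors. All 32 members matched the promoter table made from RefSeq on build GRCm38.p6, in 49 windows of 300 bases that run from 250 bases before a transcription start to 50 after it. At least 1 ACGTG stood in a window of 17 of the 32 members (53.1%), against 21.8% of all genes in that table. Genes with more windows have more room for a match. Counted by window, the shares were 42.9% of member windows and 19.6% of all windows. ACGTG was found for 8 of 12 uptake and upper glycolysis genes, 4 of 5 lower glycolysis genes, 3 of 4 lactate genes, 2 of 5 pyruvate dehydrogenase genes and 0 of 6 pentose phosphate genes. Member windows were richer in G and C (median 61.0%) than all windows (52.7%), and the part of base composition in these shares was not tested. The core TGACNNNGC of the antioxidant response element, on either strand, stood in 5 of 32 members (15.6%), against 14.0% of all genes. Counted by window, it stood in 10.2% of member windows and 12.4% of all windows. The 3 promoters printed here belong to the lactate genes on which the results turn: Ldha at chr7:46845554-46845853 on the plus strand, Ldhb at chr6:142507908-142508207 on the minus strand and Slc16a1 at chr3:104638414-104638713 on the plus strand. Each is written 5′ to 3′, with ACGTG (or its complement CACGT, or both as the palindrome CACGTG) in capitals.
Ldha: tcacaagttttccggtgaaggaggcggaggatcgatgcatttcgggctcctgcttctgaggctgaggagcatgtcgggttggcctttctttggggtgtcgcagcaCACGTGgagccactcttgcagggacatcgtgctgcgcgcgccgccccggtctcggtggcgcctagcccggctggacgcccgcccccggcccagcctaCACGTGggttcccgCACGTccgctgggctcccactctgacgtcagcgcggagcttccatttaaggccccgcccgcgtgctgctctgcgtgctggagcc
Ldhb: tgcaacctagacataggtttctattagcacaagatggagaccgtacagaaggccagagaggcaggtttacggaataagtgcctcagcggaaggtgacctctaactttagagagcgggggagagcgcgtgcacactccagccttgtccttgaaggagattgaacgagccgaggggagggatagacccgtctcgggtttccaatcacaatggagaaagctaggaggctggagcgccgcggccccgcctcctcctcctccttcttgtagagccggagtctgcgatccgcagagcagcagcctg
Slc16a1: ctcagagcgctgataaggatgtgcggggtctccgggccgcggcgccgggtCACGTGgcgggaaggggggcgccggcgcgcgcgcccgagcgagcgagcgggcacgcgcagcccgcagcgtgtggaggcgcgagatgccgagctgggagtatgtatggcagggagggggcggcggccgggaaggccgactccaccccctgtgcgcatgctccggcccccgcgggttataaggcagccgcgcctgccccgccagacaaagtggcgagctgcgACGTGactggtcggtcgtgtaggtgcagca
The Ldha window shown is the first of 2 and holds 3 such sites, 2 of them CACGTG. The Slc16a1 window holds 2, 1 of them CACGTG, and the Ldhb window holds none. A match describes the letters only, and other forms of the hypoxia element's core were not counted.

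In the order untreated, day 1, day 3 with AREG and day 3, the libraries gave 13812, 3738, 12907 and 7965 epithelial cells with 61403689, 38638628, 51858626 and 41963813 UMIs (counted RNA molecules). The median cell held 2515.5, 2916, 2685 and 3013 UMIs, of which 5.49%, 1.94%, 5.65% and 2.92% were mitochondrial. At most 3 cell barcodes were shared by any pair of libraries. Levels below are CPM, the UMIs of a gene per 1000000 epithelial UMIs, and since 3′ capture counts each molecule once, they are not divided by gene length. Classes of cells carry the suffix "-like", because they were rebuilt here from marker genes. The day 1 library stood apart: 2570 of its cells, holding 88.6% of its epithelial UMIs, fell into 1 cluster led by S100a6, Plac9, Lgals3, Msln, Krt7 and Sprr1a, against 23 untreated cells, 22 cells at day 3 with AREG and 15 cells at day 3. It came nearest to the proliferating list, with 11 of 11 markers at least 2-fold up but 0 among its 10 leading genes, and then to the pit list, so it stays unnamed. At the finer resolution 2, a cluster led by Krt7, Msln and Sprr1a with 1038 day 1 cells was named proliferating-like, and one led by Rep15, Aldh3a1 and Muc5ac with 985 day 1 cells pit-like. The day 1 values of these classes below are those of the cells outside the unnamed cluster, 124 proliferating-like and 425 pit-like. Parietal-like cells held 20.4%, 7.25%, 33.1% and 35.1% of UMIs in the same order. They were 31.1%, 7.54%, 24.6% and 23.9% of captured epithelial cells, with medians of 1862, 5405, 3676 and 4275 UMIs per cell. At day 1 their lower share of UMIs went with fewer captured cells, which were deeper. At day 3 their larger share of UMIs went with a smaller share of cells than in untreated mice. Sums over all cells alone do not separate cell number from RNA per cell.

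The 32 genes together made up 0.486% of epithelial UMIs in untreated mice, 0.574% at day 1, 0.571% at day 3 with AREG and 0.581% at day 3. At day 1 against untreated, 5 members were at least 2-fold higher (Pdk4, Slc16a1, Tkt, Pgd and Pfkp) and 1 was at least 2-fold lower (Ldhb). A gene counts here as 2-fold higher or lower when its log2 ratio of CPM + 1 is at least 1 or at most -1, with at least 10 UMIs over both libraries. Of all 20846 genes compared, 13.5% were that much higher and 1.95% that much lower, so the members' shares of 15.6% and 3.12% lie near the background. The members' median log2 ratio was 0.32, against 0.23 over all genes. Among genes of at least 50 CPM in either library the order was the other way, 0.34 for members and 0.49 for all genes, of which 26.1% were 2-fold higher. With the UMI shares of the named classes held at those of untreated mice, the median was 0.27 for members and 0.46 for all genes. That setting leaves out the unnamed cluster, which held 88.6% of day 1 epithelial UMIs, and rests on 10 chief-like cells at day 1. Below, it is written as class shares held equal. With mitochondrial, ribosomal protein and the 20 most abundant genes left out of the scaling, the median of all genes was 0.10 and that of the members 0.04. The split was then 2 members higher and 3 lower: Pfkp (0.77), Pgd (0.80) and Tkt (0.82) fell short of the rule and Pfkl (-1.15) and Pfkfb3 (-1.31) passed it.

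**Figure D1:**
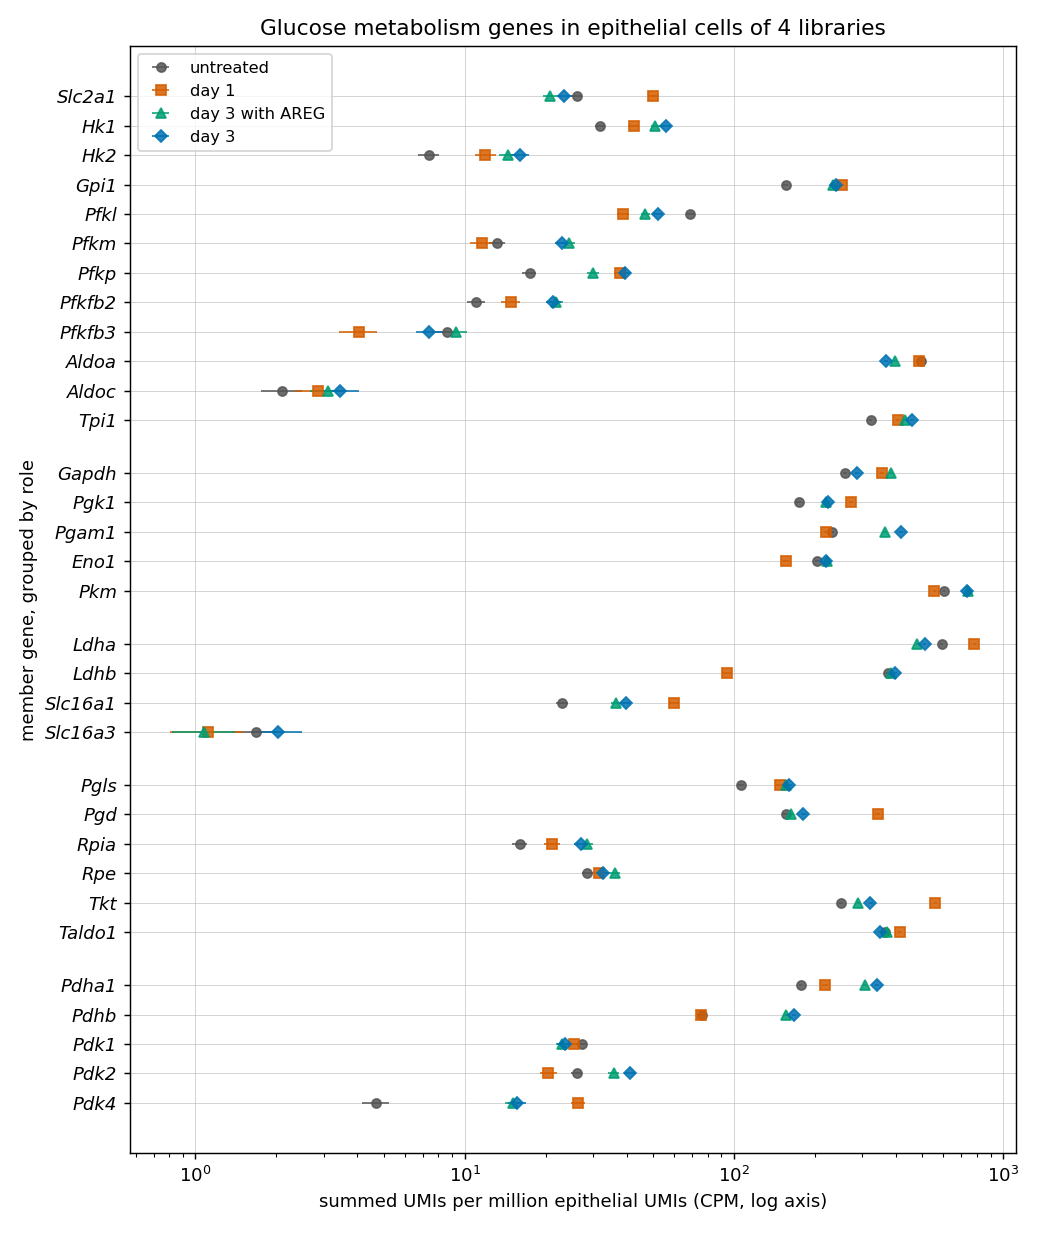
Level of each of the 32 genes in epithelial cells of the 4 libraries, in CPM on a log axis, grouped by role; points are single libraries and bars are exact Poisson 95% intervals. Ldhb stands out as 94.6 CPM at day 1 against 373 CPM in untreated mice, and Pdk4 as 26.5 CPM against 4.67 CPM.

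Uptake and upper glycolysis came first. Slc2a1, the glucose transporter GLUT1, had 26.1 CPM in untreated mice, 50.3 CPM at day 1, 20.7 CPM at day 3 with AREG and 23.5 CPM at day 3. Day 1 was the high library, 1.93-fold above untreated (95% interval 1.80 to 2.06). That falls short of the 2-fold rule on the CPM + 1 scale (log2 ratio 0.92). Slc2a1 did pass the rule with every cell weighted equally, with class shares held equal and over all barcodes. Hexokinases trap glucose in the cell as glucose 6-phosphate, and Hk2 is the inducible form. Hk2 had 7.36, 11.9, 14.5 and 16.1 CPM in the order untreated, day 1, day 3 with AREG and day 3, and Hk1 had 31.9, 42.5, 51.2 and 56.1 CPM. Both were lowest in untreated mice and highest at day 3 without AREG. With class shares held equal, both were highest at day 1 instead, at 17.5 CPM for Hk2 and 58.4 CPM for Hk1.

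Phosphofructokinase, which commits sugar to glycolysis, is built of liver (Pfkl), muscle (Pfkm) and platelet (Pfkp) type subunits, and the mix differed between libraries. Pfkl had 69.0 CPM in untreated mice, 38.8 CPM at day 1, 47.0 CPM at day 3 with AREG and 52.1 CPM at day 3. Pfkp had 17.5 CPM in untreated mice, 37.8 CPM at day 1, 30.0 CPM at day 3 with AREG and 39.3 CPM at day 3. Pfkm had 13.2 and 11.6 CPM in untreated mice and at day 1, and 24.4 and 23.0 CPM at day 3 with and without AREG. Pfkl thus gave 69.2% of phosphofructokinase UMIs in untreated mice (95% Clopper-Pearson interval 68.1 to 70.4) and 44.0%, 46.3% and 45.5% in the other libraries, in the order day 1, day 3 with AREG and day 3. Pfkp gave 42.9% at day 1 and 17.5% in untreated mice. Within each of the 4 cell classes that could be compared, Pfkl was lower at day 1 than in untreated mice, by log2 ratios of -1.31 to -0.60. Pfkfb3, which makes the activator of phosphofructokinase, was low everywhere, at 8.57, 4.04, 9.29 and 7.39 CPM in the same library order as Hk2. Of the remaining upper enzymes, Gpi1, which converts glucose 6-phosphate to fructose 6-phosphate, had 156 CPM in untreated mice and 252, 234 and 239 CPM in the L635 libraries. Aldoa, the aldolase that splits the 6-carbon sugar, had 498, 487, 398 and 368 CPM, and Tpi1, which interconverts the triose products, had 323, 408, 433 and 460 CPM. Pfkfb2 lay between 11.0 and 21.9 CPM and Aldoc between 2.10 and 3.46 CPM.

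The lower glycolysis genes were among the most abundant members, and none passed the 2-fold rule in any comparison over all epithelial cells. Pkm, pyruvate kinase of the muscle type, had 604 CPM in untreated mice, 555 CPM at day 1, 742 CPM at day 3 with AREG and 737 CPM at day 3. Pgam1, which moves the phosphate of phosphoglycerate, had 231 CPM in untreated mice, 220 CPM at day 1, 364 CPM at day 3 with AREG and 418 CPM at day 3. Gapdh, the enzyme that makes the NADH later used for lactate, had 259 CPM in untreated mice, 355 CPM at day 1, 384 CPM at day 3 with AREG and 288 CPM at day 3. Day 3 with AREG was the highest library for Gapdh and untreated the lowest. Pgk1, the first ATP-making step, had 175, 272, 221 and 223 CPM, highest at day 1. Eno1 (enolase) had 204, 157, 222 and 220 CPM, but a near-identical copy, Eno1b, took 44.8% to 47.4% of their joint UMIs in every library, so the level of Eno1 itself is uncertain.

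The lactate genes diverged at day 1. Ldhb, the subunit that prevails in oxidative tissues, had 373 CPM in untreated mice (95% interval 368 to 378), 94.6 CPM at day 1 (91.6 to 97.7), 384 CPM at day 3 with AREG (379 to 389) and 398 CPM at day 3 (392 to 405). Day 1 was the low library, 3.94-fold below untreated (3.81 to 4.08), and the libraries at day 3 lay close to untreated. The log2 ratio of Ldhb at day 1 was -1.97 over all cells, -0.85 with class shares held equal and 0.54 with the unnamed clusters left out. Both of these settings drop the unnamed cluster, which held 88.6% of day 1 epithelial UMIs. Of the day 1 UMIs left without it, parietal-like cells, the class highest in Ldhb, held 2803168 and pit-like cells 504681. Within parietal-like cells Ldhb had 1600 CPM in untreated mice and 815 CPM at day 1. The part of the cell mix in the Ldhb difference was not tested. Ldha had 592 CPM in untreated mice, 783 CPM at day 1, 480 CPM at day 3 with AREG and 513 CPM at day 3, and was 1.32-fold higher at day 1 than in untreated mice (1.30 to 1.34). Ldha accordingly gave 61.3% of lactate dehydrogenase UMIs in untreated mice, 89.2% at day 1, 55.6% at day 3 with AREG and 56.3% at day 3. Slc16a1, the lactate transporter MCT1, had 23.0 CPM in untreated mice, 59.9 CPM at day 1, 36.5 CPM at day 3 with AREG and 39.7 CPM at day 3. It was 2.61-fold higher at day 1 than in untreated mice (2.44 to 2.79), and all 3 L635 libraries lay above untreated. With class shares held equal its log2 ratio was 0.80, below the rule. Slc16a3, the transporter MCT4 of strongly glycolytic cells, stayed between 1.08 and 2.03 CPM.

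The oxidative enzyme and the transketolase of the pentose phosphate pathway were high at day 1. Pgd, the second NADPH-making enzyme, had 156 CPM in untreated mice, 342 CPM at day 1, 163 CPM at day 3 with AREG and 181 CPM at day 3. Tkt, the transketolase that returns pentoses to glycolysis, had 251 CPM in untreated mice, 560 CPM at day 1, 290 CPM at day 3 with AREG and 322 CPM at day 3. Day 1 stood above the other 3 libraries for both, at 2.19-fold (2.14 to 2.25) for Pgd and 2.23-fold (2.19 to 2.28) for Tkt against untreated. With class shares held equal the log2 ratios were 0.83 for Pgd and 0.79 for Tkt, both below the rule. The other 4 pathway members did not pass the rule. Taldo1 (transaldolase) had 364, 413, 372 and 349 CPM in the order untreated, day 1, day 3 with AREG and day 3, Pgls (lactonase) 106, 148, 157 and 161 CPM, Rpe (epimerase) 28.5, 31.6, 36.1 and 32.6 CPM, and Rpia (isomerase) 16.0, 21.2, 28.5 and 27.1 CPM. All 6 pentose phosphate members had a positive log2 ratio at day 1 against untreated, with a median of 0.43. G6pdx, the NADPH-making entry enzyme of the pathway, is no member; it had 83.1 CPM at day 1 and 54.9 CPM in untreated mice (log2 ratio 0.59).

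Among the mitochondrial genes, the kinase Pdk4 and the pyruvate dehydrogenase subunits peaked in different libraries. Pdk4, a kinase that is raised in fasting and lowers pyruvate oxidation, had 4.67 CPM in untreated mice (4.15 to 5.25), 26.5 CPM at day 1 (24.9 to 28.1), 15.1 CPM at day 3 with AREG (14.1 to 16.2) and 15.7 CPM at day 3 (14.5 to 16.9). All 3 L635 libraries lay above untreated, day 1 by 5.66-fold (4.96 to 6.47), day 3 with AREG by 3.24-fold (2.83 to 3.72) and day 3 by 3.35-fold (2.92 to 3.87). Pdk4 made up 8.07% of the UMIs of Pdk1, Pdk2 and Pdk4 in untreated mice, 36.5% at day 1, 20.5% at day 3 with AREG and 19.5% at day 3. Pdk1 stayed between 23.0 and 27.2 CPM, and Pdk2 had 26.1, 20.5, 35.8 and 41.0 CPM. Pdhb, the beta subunit of the first enzyme of the complex, had 76.3 CPM in untreated mice, 75.7 CPM at day 1, 156 CPM at day 3 with AREG and 168 CPM at day 3. Pdha1, the alpha subunit, had 177 CPM in untreated mice, 218 CPM at day 1, 306 CPM at day 3 with AREG and 340 CPM at day 3. Both subunits were higher in the libraries at day 3 than in the earlier ones. Parietal-like shares of UMIs were larger there, although their shares of cells were smaller than in untreated mice. Without parietal-like cells the log2 ratio of Pdhb at day 3 against day 1 was -0.02, against 1.14 with them. Pdha1 at day 3 against untreated passed the rule only once parietal-like cells were left out. By class, Pdha1 was above 0 in 5 of 5 in that comparison (0.05 to 2.22). Against day 1 it was above 0 in 1 of 4 (-0.79 to 0.29). Within parietal-like cells Pdhb had 235 CPM in untreated mice, 184 CPM at day 1, 346 CPM at day 3 with AREG and 354 CPM at day 3. Pdha1 had 468, 397, 525 and 485 CPM there in the same order. Leaving these cells out removes these differences along with their share of UMIs, and the part of each was not tested.

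At day 3 against day 1, 2 members were at least 2-fold higher and 1 at least 2-fold lower, while 3.53% of all genes were higher and 3.75% lower (members 6.25% and 3.12%). Ldhb was 4.21-fold higher (4.06 to 4.37), Pdhb was 2.21-fold higher (2.12 to 2.31) and Slc2a1 was 2.14-fold lower (1.98 to 2.31). The members' median log2 ratio was 0.19, against 0.07 over all genes. With the unnamed clusters left out 0 of these 3 calls remained (Ldhb -0.44, Slc2a1 -0.99), and with class shares held equal only that of Slc2a1 did. Without parietal-like cells Pdhb (-0.02) and Slc2a1 (-0.99) fell short of the rule, as did Slc2a1 with 10 CPM added (-0.85) and Pdhb with every cell weighted equally (0.81). This comparison and the one with untreated share the day 1 library. At day 3 against untreated, 4 members were at least 2-fold higher (Pdk4, Pfkp, Pdhb and Hk2) and 0 lower, with 10.5% and 0.887% of all genes called. Only 1 of these 4 calls remained in each of 4 alternatives: Pdhb (1.04) with 10 CPM added, Pdk4 under the other scaling (1.34) and with class shares held equal (1.28), and Pfkp (1.01) with every cell weighted equally. At day 3 with AREG against untreated, Pdk4 and Pdhb were higher and 0 members lower, with 9.29% and 0.818% of all genes called. Both calls were lost with 10 CPM added (Pdk4 0.78, Pdhb 0.95) and with every cell weighted equally (0.68 and 0.35). Pdhb was also below the rule under the other scaling (0.72), with class shares held equal (0.67), over all barcodes (0.94) and without parietal-like cells (0.79).

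**Figure D2:**
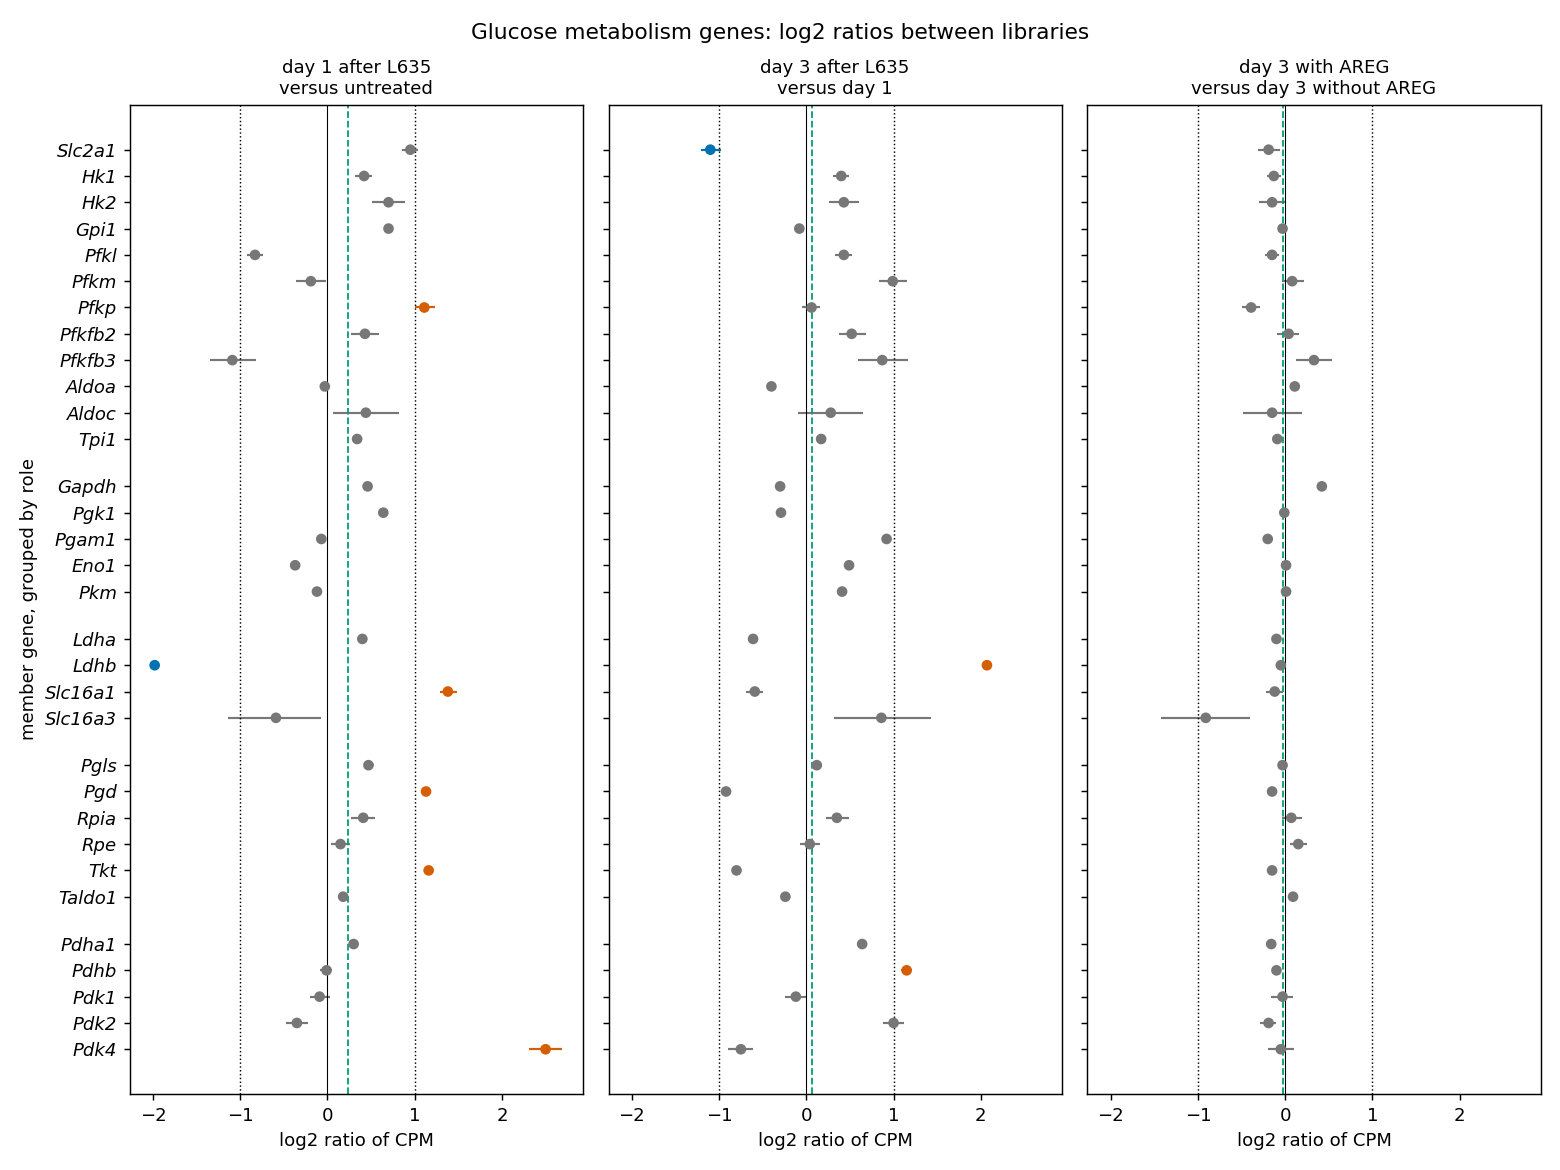
Log2 ratio of CPM for each gene in the 3 comparisons, with exact 95% intervals for counting error; colour marks the genes past the 2-fold rule, dotted lines a 2-fold difference and the dashed line the median of all genes on the CPM + 1 scale. At day 1 against untreated Pdk4, Slc16a1, Tkt, Pgd and Pfkp lie past the upper line and Ldhb past the lower, while 0 genes are coloured at day 3 with AREG against day 3 without. Pfkfb3 at day 1 lies past the lower line here but not on the CPM + 1 scale (-0.93), so it is not coloured.

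Between day 3 with AREG and day 3 without, 0 of the 32 members differed by 2-fold over all epithelial cells, where 0.0511% of all genes were that much higher and 0.227% that much lower. The members' median log2 ratio was -0.07, against -0.03 over all genes, and 10 of 32 were above 0. Outside Slc16a3, which had few UMIs, the widest gaps were Gapdh (384 CPM at day 3 with AREG against 288 CPM at day 3, 1.33-fold, 1.30 to 1.36) and Pfkp (30.0 against 39.3 CPM, 0.763-fold, 0.711 to 0.818). Gapdh was higher with AREG in 5 of 5 cell classes, at 773 against 615 CPM in parietal-like cells, 173 against 103 CPM in pit-like cells, 185 against 100 CPM in neck/chief-like cells, 129 against 74.8 CPM in chief-like cells and 309 against 238 CPM in proliferating-like cells. Its log2 ratios there were 0.33 to 0.88, all below 2-fold. The count of members past the rule was 0 higher and 0 lower in parietal-like (0.0599% and 0.192% of all genes), pit-like (0.182% and 0.598%), neck/chief-like (0.527% and 1.94%) and chief-like cells (2.57% and 1.73%). In proliferating-like cells it was 0 higher and 1 lower (1.81% and 2.29%): Ldhb, with 115 CPM against 260 CPM, beside parietal markers that summed to 1760 CPM with AREG and 4030 CPM without. Taldo1 was also above 0 in 5 of 5 classes (0.04 to 0.25) and Slc2a1 below 0 in 5 of 5 (-0.44 to -0.04). With 1 library a side, these differences cannot be told apart from differences between libraries.

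Across cell types of untreated mice, the genes were uneven. Of 7 classes compared, parietal-like cells had the highest level of 18 of the 32 members. They had 1600 CPM of Ldhb, 10.6-fold above the next class (tuft-like, 151 CPM), 730 CPM of Pgam1 against 191 CPM in endocrine-like cells, and 468 CPM of Pdha1 against 132 CPM in neck/chief-like cells. Members made up 0.961% of UMIs in parietal-like cells of untreated mice, 0.428% in pit-like cells and 0.064% in chief-like cells. In chief-like cells, which make digestive enzymes, the 10 chief markers alone summed to 610000 CPM. Slc2a1 and Pfkp were highest in tuft-like cells (86.9 and 61.1 CPM), Slc16a1 in pit-like cells (41.0 CPM), and Pgd and Tkt in proliferating-like cells (238 and 380 CPM), where pit-like cells followed within 1.17-fold. Pdk1 was highest in chief-like cells (63.1 CPM), next to neck/chief-like cells (54.1 CPM).

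**Figure D3:**
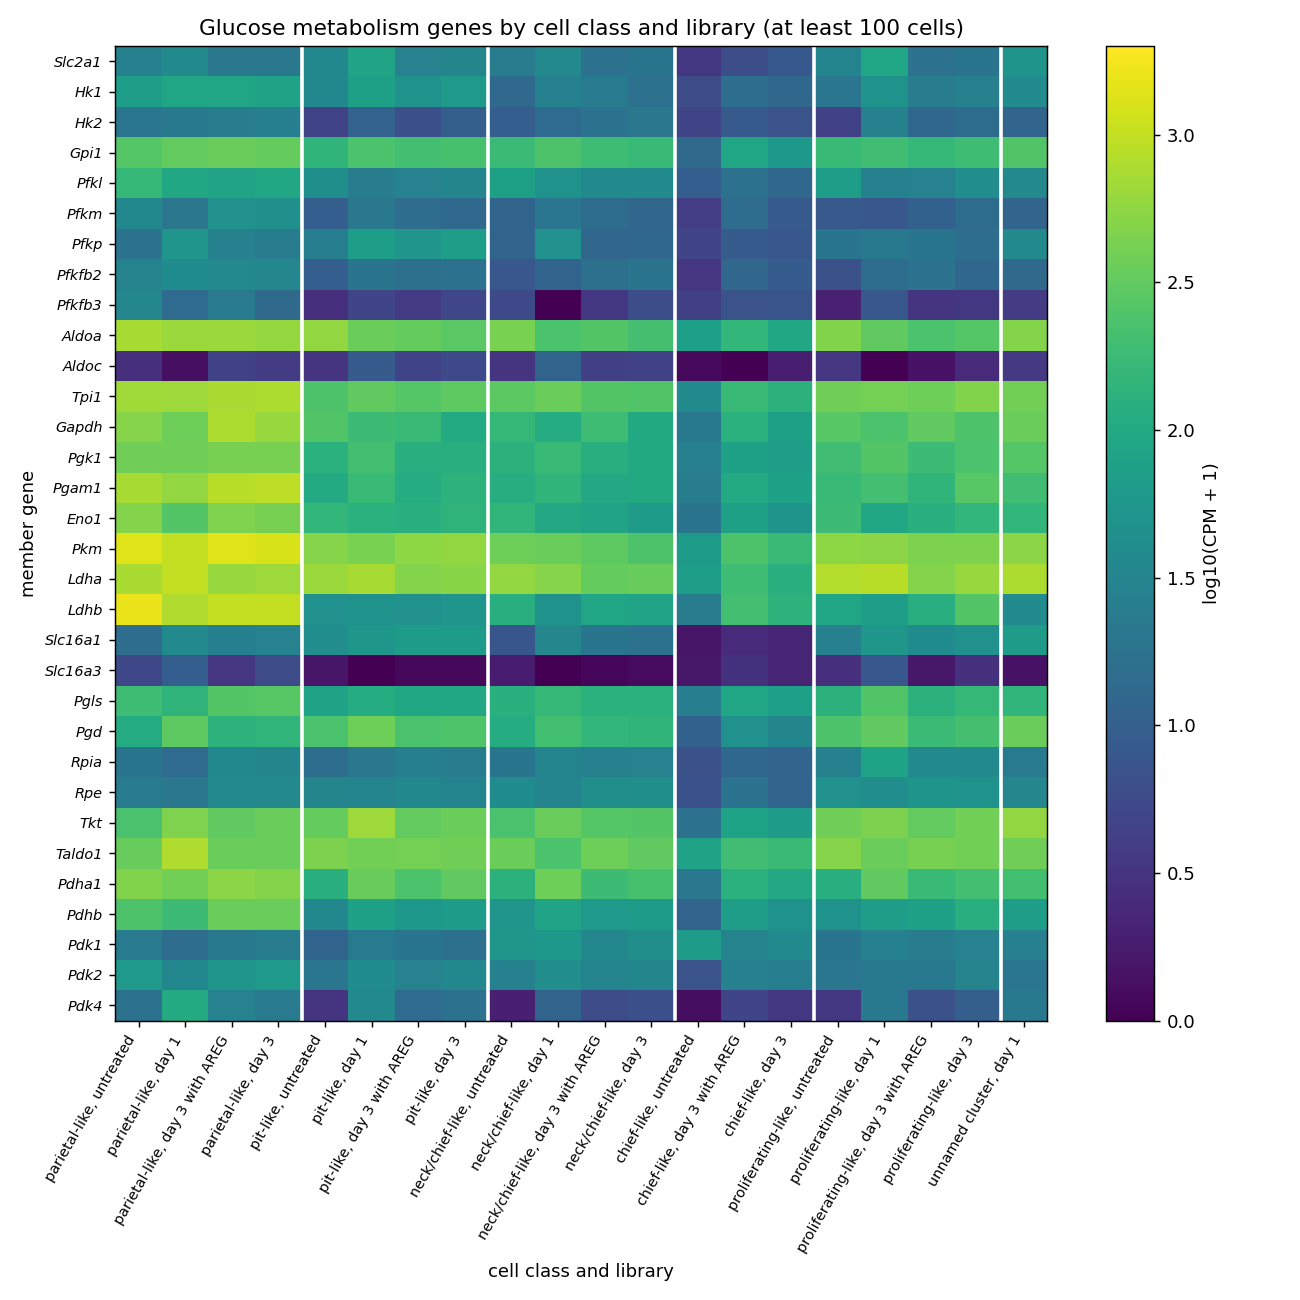
Heat map of the level of all 32 genes (down the page) in each cell class with at least 100 cells and each library (across), coloured by log10 of CPM + 1. Ldhb is highest in parietal-like cells in every library, at 1600 CPM in untreated mice and 815 CPM at day 1, and the unnamed day 1 cluster lies at 38.0 CPM.

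Within parietal-like cells Ldhb had 1600 CPM in untreated mice, 815 CPM at day 1, 993 CPM at day 3 with AREG and 978 CPM at day 3. Untreated was the high library, and the 3 L635 libraries lay 1.96-fold, 1.61-fold and 1.63-fold below it, in the order day 1, day 3 with AREG and day 3. Over all epithelial cells the level at day 3 was close to untreated even so. Parietal-like shares of UMIs were 33.1% with AREG and 35.1% without, against 20.4% in untreated mice. Their shares of cells were 24.6%, 23.9% and 31.1% in the same order. After every cell was thinned to 500 UMIs, Ldhb was found in 53.8% of parietal-like cells in untreated mice, 25.9% at day 1, 35.7% at day 3 with AREG and 34.2% at day 3, and in 3.29% to 3.50% of pit-like cells. Unthinned, the parietal-like shares were 84.5%, 78.4%, 83.2% and 81.8%, at median depths of 1862, 5405, 3676 and 4275 UMIs, and the pit-like shares in the 3 L635 libraries were 4.94%, 13.1% and 16.8%, at median depths of 750, 2402 and 2739 UMIs. Pit-like cells had 46.2, 47.6, 46.2 and 52.1 CPM of Ldhb, while barcodes with fewer than 50 UMIs, which hold free RNA, had 521, 110, 336 and 357 CPM. Different clusters held most parietal-like cells: cluster 1 in untreated mice (82.8%), cluster 22 at day 1 (79.8%) and cluster 2 at day 3 with AREG (67.3%) and without (63.5%). Parietal markers summed to 28400, 16600, 26700 and 26200 CPM in these cells, and their part in the Ldhb difference was not tested.

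The parietal-like cells left at day 1 numbered 282, against 4293 in untreated mice. In them 6 members were at least 2-fold higher than in untreated parietal-like cells and 2 lower, with 11.2% and 3.38% of all genes called. Pdk4 had 103 against 15.9 CPM, Taldo1 had 802 against 338 CPM, Pgd had 304 against 107 CPM and Tkt had 460 against 223 CPM. Pfkp had 51.4 against 17.2 CPM and Slc16a1 had 35.7 against 14.1 CPM. Barcodes with fewer than 50 UMIs, which hold free RNA, also had more of each at day 1 than in untreated mice. Their levels were 33.1 against 5.65 CPM for Pdk4, 414 against 285 CPM for Taldo1 and 368 against 149 CPM for Pgd. They were 607 against 217 CPM for Tkt, 44.2 against 23.5 CPM for Pfkp and 45.3 against 16.6 CPM for Slc16a1. The part of free RNA in the parietal-like values was not tested. Of these 6 genes 3 belong to the pentose phosphate pathway. Taldo1 passed the rule in 1 of the 4 classes compared at day 1 (its log2 ratios ran -0.61 to 1.24), and whether classes differ was not tested. The lower genes were Pfkfb3, with 13.2 against 32.6 CPM, and Aldoc, with 1 against 23 UMIs. The members' median log2 ratio was -0.20, against 0.26 over all genes. By day 3, against day 1, Pdk4 (22.9 against 103 CPM), Taldo1 (354 against 802 CPM), Pgd (149 against 304 CPM) and Pfkp (24.4 against 51.4 CPM) were at least 2-fold lower in parietal-like cells. Pfkm, Rpia and Aldoc were at least 2-fold higher, beside 5.86% of all genes higher and 8.79% lower. Against untreated, parietal-like cells had 0 members higher and 1 lower at day 3 (Pfkfb3, 12.9 against 32.6 CPM; 3.53% and 1.87% of all genes) and 0 and 0 at day 3 with AREG (3.2% and 2.14%).

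Outside parietal-like cells, Pdk4 was also more than 2-fold higher at day 1 than in untreated mice in each class compared, although the counts were small. It had 35.7 against 2.26 CPM in pit-like cells (18 and 49 UMIs) and 10.7 against 0.923 CPM in neck/chief-like cells (4 and 6 UMIs). In proliferating-like cells it had 20.5 against 2.46 CPM (3 and 24 UMIs). Barcodes with fewer than 50 UMIs, which hold free RNA, had 33.1 CPM of Pdk4 at day 1 and 5.65 CPM in untreated mice. The part of free RNA in the class values was not tested. The unnamed day 1 cluster had 20.5 CPM of Pdk4. That cluster carried most day 1 UMIs, and its 349 CPM of Pgd, 576 CPM of Tkt, 62.8 CPM of Slc16a1 and 772 CPM of Ldha lay close to the levels of the whole library. Gapdh gave the opposite sign by class: 1.37-fold higher at day 1 than in untreated mice over all epithelial cells, yet below 0 in 4 of 4 classes (log2 ratios -0.49 to -0.24), with 362 CPM in the unnamed cluster. Aldoa, Eno1 and Pkm were below 0 in 4 of 4 classes as well. Pit-like cells at day 1 had 10 members at least 2-fold higher and 0 lower, with 45.5% and 4.49% of all genes called, at a median depth of 750 UMIs against 2891 in untreated mice. Among them Pdha1 had 345 against 123 CPM, Slc2a1 83.2 against 34.0 CPM and Pfkp 67.4 against 24.7 CPM. Neck/chief-like cells, which carry both mucous neck and chief genes, had 6 members higher and 2 lower, with 33.5% and 11.6% of all genes called; Pdha1 (373 against 132 CPM) was among the higher and Ldhb (48.3 against 117 CPM) among the lower. Proliferating-like cells had 10 higher and 2 lower (35.9% and 23.0%), each on fewer than 50 UMIs at day 1.

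The cluster with the most pit-like cells differed by library: cluster 4 in untreated mice (58.0%), 7 at day 1 (28.0%), 9 at day 3 with AREG (25.9%) and 3 at day 3 (43.7%). At day 3 they had 4 members at least 2-fold higher than in untreated mice and 2 lower, with 22.2% and 0.892% of all genes called. Pdha1 had 315 against 123 CPM, Pfkp had 70.2 against 24.7 CPM, Pdk4 had 16.1 against 2.26 CPM and Hk2 had 9.11 against 3.73 CPM. The lower members were Gapdh (103 against 249 CPM) and Aldoa (282 against 577 CPM). With AREG, pit-like Gapdh was 173 CPM and Aldoa 333 CPM, neither of them past the rule against untreated, where 2 members (Pfkp and Pdk4) and 17.6% of all genes were higher and 0 members and 0.509% lower. In neck/chief-like cells against untreated, 4 members were higher and 1 lower at day 3 (21.2% and 2.36% of all genes) and 3 and 1 with AREG (16.4% and 3.25%). Most neck/chief-like cells of untreated mice lay in cluster 10 (86.4%) and most of those at day 1, day 3 with AREG and day 3 in cluster 0 (79.7%, 94.3% and 86.0%). Their chief markers summed to 239000 CPM in untreated mice, 156000 CPM at day 1, 130000 CPM at day 3 with AREG and 194000 CPM at day 3, and the part of this in the members' values was not tested. Slc16a1 was among the higher in both, with 18.2 CPM with AREG, 16.7 CPM without and 6.61 CPM in untreated mice, although its sign turned under a finer clustering. In proliferating-like cells the counts were 4 and 0 at day 3 (25.1% and 1.67%) and 2 and 3 with AREG (21.0% and 0.785%), and Hk2 was higher in both, with 11.7 CPM with AREG, 13.8 CPM without and 3.48 CPM in untreated mice. Parietal markers summed there to 1760 CPM with AREG, 4030 CPM without and 484 CPM in untreated mice, and parietal-like cells had 23.5, 25.8 and 18.5 CPM of Hk2 in the same order. The part of parietal RNA in this difference was not tested. Endocrine-like cells could be compared with AREG against untreated, with 2 members higher and 1 lower (17.3% and 6.03%). Chief-like cells at day 3 had 20 of 30 measured members at least 2-fold higher than in untreated mice without AREG and 23 of 31 with AREG, beside 50.1% and 57.4% of all genes. Lower were 0 members without AREG and 1 with it (1.17% and 2.53% of all genes), Pdk1 with 29.1 against 63.1 CPM. The parietal markers there summed to 4290 CPM with AREG, 2670 CPM without and 324 CPM in untreated mice, and the chief markers to 460000, 516000 and 610000 CPM. The part of either in the members' levels was not tested.

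**Figure D4:**
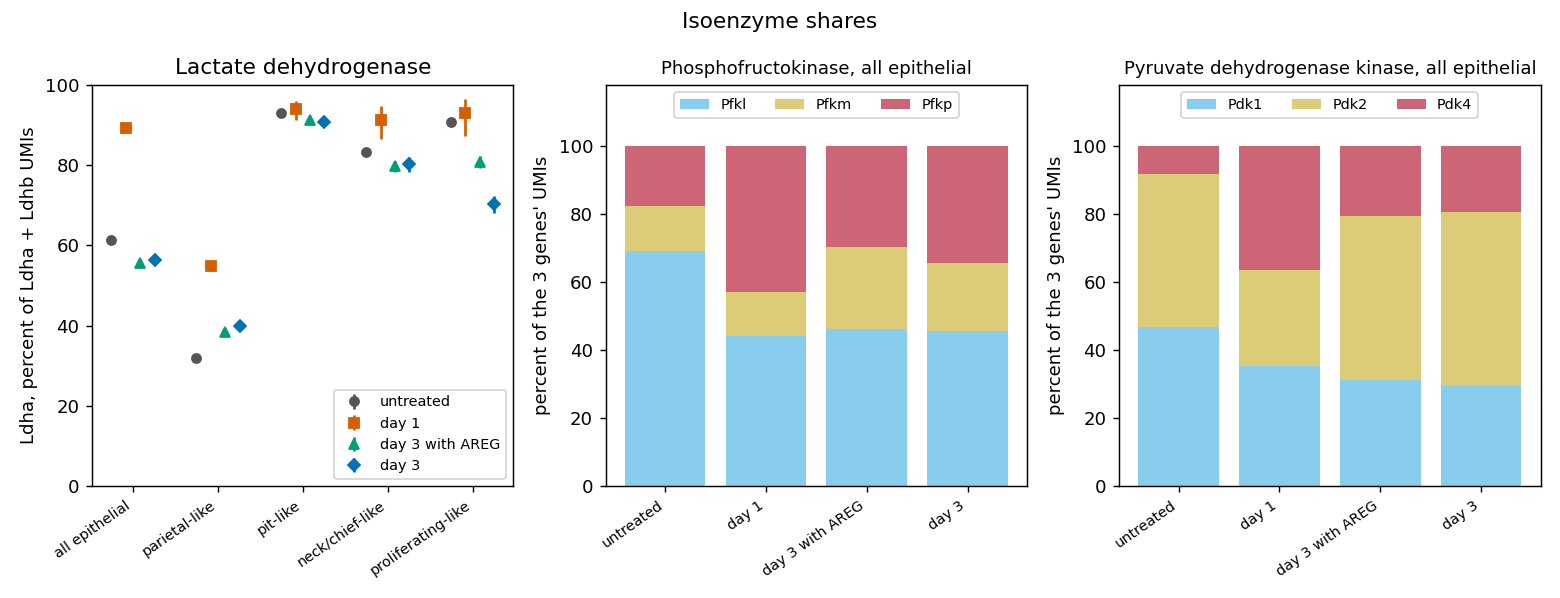
Left, Ldha as a percent of Ldha and Ldhb UMIs in all epithelial cells and in 4 cell classes of each library, with exact Clopper-Pearson 95% intervals; middle and right, stacked bars of the 3 phosphofructokinase and the 3 pyruvate dehydrogenase kinase genes in all epithelial cells, as percents of their UMIs. Ldha gives 32.0% of lactate dehydrogenase UMIs in untreated parietal-like cells and 54.9% in those at day 1, and over 90% in pit-like cells of every library.

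The mix of isoenzymes was also read within classes. In parietal-like cells Ldha gave 32.0% of lactate dehydrogenase UMIs in untreated mice (31.5 to 32.5), 54.9% at day 1 (53.5 to 56.2), 38.5% at day 3 with AREG (37.9 to 39.0) and 39.8% at day 3 (39.1 to 40.4). Untreated was the lowest and day 1 the highest. In pit-like cells the share was 93.1%, 94.0%, 91.2% and 90.8%, and in the unnamed day 1 cluster 95.3%. Pdk4 gave 16.2% of the kinase UMIs of parietal-like cells in untreated mice, 68.5% at day 1, 27.5% at day 3 with AREG and 22.0% at day 3. Pfkp gave 32.3% of phosphofructokinase UMIs of pit-like cells in untreated mice, and 60.7%, 55.1% and 61.3% in the L635 libraries, in the order day 1, day 3 with AREG and day 3.

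Other genes of glucose metabolism, from 7 lists, stayed mostly within 2-fold, as did most of all genes. Of all genes, 13.5% were higher and 1.95% lower at day 1 against untreated. The shares were 3.53% and 3.75% at day 3 against day 1, and 0.0511% and 0.227% at day 3 with AREG against day 3. At day 1 against untreated, the counts higher and lower were 1 and 1 of 24 other glycolysis genes. They were 2 and 0 of 9 other pentose phosphate genes and 0 and 1 of 14 other lactate and pyruvate genes. For gluconeogenesis they were 1 and 0 of 5 genes, and for glycogen 1 and 0 of 12. The list of hypoxia targets and regulators gave 2 and 1 of 17, with Hif1a among the higher. The sugar-sensing list gave 2 and 0 of 6, with Myc among the higher. At day 3 against day 1 they were 1 and 1, 1 and 0, 2 and 0, 0 and 1, 1 and 0, 2 and 0, and 0 and 0 in the same order of lists, and at day 3 with AREG against day 3 all were 0 and 0. Slc16a7, the lactate and pyruvate transporter MCT2, had 30.1 CPM at day 1 against 66.2 CPM in untreated mice, and 90.8 CPM at day 3. Mpc2, a subunit of the carrier that takes pyruvate into mitochondria, had 487 CPM at day 3 against 152 CPM at day 1. Myc and Hif1a, regulators known to drive glycolytic genes, had 40.2 against 15.3 CPM (Myc) and 24.1 against 10.3 CPM (Hif1a) at day 1 against untreated. Txnip, which restrains glucose uptake, had 134 CPM both at day 1 and in untreated mice, 288 CPM at day 3 with AREG and 212 CPM at day 3. Against untreated, day 3 also had more Dlat (82.9 against 31.4 CPM), another subunit of the pyruvate dehydrogenase complex, more Ero1a (68.1 against 27.1 CPM) and more Pygb (93.2 against 45.9 CPM).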

How the data were processed

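Single-cell RNA libraries of the mouse stomach corpus were analysed, 1 for each of the 4 groups. The authors deposited whole-number UMI counts for each gene and barcode, with no filter on barcodes. The build was GRCm39 (mm39) per the submitters' processing notes; the aligner is not given in the sources used here. Tissue was dissociated with TrypLE and Y27632 at 37 °C for 5 min and 25000 cells were loaded per capture, per the labels' protocols.

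A cell needed 500 or more UMIs, 200 or more genes and a mitochondrial share of at most 50%. Scrublet marked 26, 0, 5 and 14 cells in the order untreated, day 1, day 3 with AREG and day 3 (at most 0.187% of a library), so it is taken not to have worked, and the true doublet rate is unknown. The marked cells were removed. Counts scaled to 10000 per cell were log-transformed, and 2000 variable genes, 40 principal components, 15 neighbours and Leiden resolution 1 gave 30 clusters (scanpy 1.11.5, leidenalg 0.10.2). A cluster was named from marker lists; the scoring rule was set after clusters had been seen. The files repeat 27 gene symbols, and the first entry was used.

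Raw counts of epithelial cells were summed per library and class and scaled to CPM, and ratios are of CPM + 1 on the log2 scale, which understates differences of low genes. Fold values are ratios of CPM with no addition. Intervals are exact (Poisson for levels, conditional binomial for ratios, Clopper-Pearson for shares; 95%; scipy 1.17.1) and cover counting error only. Classes with at least 100 cells in both libraries were compared. With 1 library per group no test was run. All members are named; genes of other lists are named at 50 CPM or more in either library with a 2-fold difference, and Hif1a, Myc, Txnip and G6pdx always. Within a class the rule names the 5 highest and 5 lowest members of at least 50 CPM; members with fewer CPM that are given there were named because they are members. The members and the lists were chosen with earlier results of these data known. The scripts were tested on simulated counts. Alternatives were other cell filters, all barcodes, free RNA subtracted, another pseudocount, no filter on low counts, another scaling, equal cell weights, fixed class shares, other resolutions, unnamed clusters left out and, added after the data were seen, parietal-like cells left out. Fixed class shares were those of the named classes in untreated mice, and clusters without a class name were left out.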

Additional observations from a re-analysis of the deposited data

Results flagged for a closer look

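Among class values of at least 50 CPM in either library, a pair of cell classes moved past 2-fold in opposite directions in 3 cases. All were between a library at day 3 and the untreated library. With values under 50 CPM included, other members did so too. Among them were Aldoc (2 classes higher, 2 lower) and Pfkfb3 (1 and 2) at day 1 against untreated. Eno1 did so at day 3 against untreated (log2 ratios -1.20 to 1.45). The difference between the classes was not tested, since each group is 1 library. At day 3 against untreated, Gapdh had a log2 ratio of 1.80 in chief-like cells (74.8 against 20.8 CPM) and -1.26 in pit-like cells (103 against 249 CPM). At day 3 with AREG against untreated, Aldoa had 1.06 in chief-like cells (150 against 71.1 CPM) and -1.02 in proliferating-like cells (232 against 472 CPM). In the same comparison Ldhb had 3.04 in chief-like cells (202 against 23.7 CPM) and -1.21 in endocrine-like cells (31.5 against 74.3 CPM).

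Chief-like cells, which have the positive ratio in each pair printed above, held more parietal markers at day 3: the 10 markers summed to 4290 CPM with AREG, 2670 CPM without and 324 CPM in untreated mice. Atp4b, a subunit of the proton pump of parietal cells, had 1240 CPM, 967 CPM and 130 CPM there, and UMIs of Ldhb per UMI of Atp4b were 0.163, 0.138 and 0.183. In parietal-like cells that ratio was 0.0795, 0.0728 and 0.121 in the same order. The part of parietal RNA in the chief-like values was not tested.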

How the results depend on the processing

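The 9 summary values were recomputed under 11 alternatives, 10 planned and 1 added after the data were seen. At day 1 against untreated, the members' median of 0.32 became 0.04 under the other scaling (2 higher, 3 lower) and 0.05 with equal cell weights (2 lower). It became 0.76 both with unnamed clusters left out (8 higher, 0 lower) and with parietal-like cells left out (0 lower). The medians of all genes were 0.10, 0.28, 0.53 and 0.31 in this order of settings. With class shares held equal 0 members were lower. The share of all genes past the rule was not counted under the alternatives. At day 3 against day 1, the members' median of 0.19 became 0.01 with equal cell weights (1 higher) and -0.12 with class shares held equal (0 higher, 2 lower). It became -0.30 with unnamed clusters left out (0 higher, 2 lower) and -0.16 with parietal-like cells left out (1 higher, 2 lower). The medians of all genes were 0.04, -0.08, -0.15 and 0.05 in this order of settings. With 10 CPM added, 0 members were lower. For AREG both counts were 0 under all 11 alternatives. Signs turned for 8 single values: Ldhb with unnamed clusters left out, 0.54 at day 1 against untreated and -0.44 at day 3 against day 1; Pdhb at day 3 against day 1 without parietal-like cells, -0.02; and, at resolution 2, Slc16a1 in neck/chief-like cells against untreated, -0.05 at day 3 and -0.27 with AREG, and in proliferating-like cells Slc16a3 (-0.82) and Rpia (-0.16) at day 1 against untreated and Rpia (0.59) at day 3 against day 1. Of the other single-gene values 2390 stayed within their counting interval and 801 moved beyond it. Pdk4 at day 1 passed the rule in every alternative, with log2 ratios of 1.31 to 3.72. Calls within classes depend on the clustering: at resolution 2, 12 of 30 remained at day 1 against untreated, and at 0.5, 21 of 26. No paired analysis was possible because each group has 1 library, and no library could be left out. Members under 10 CPM rest on few UMIs per class.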
